A study of Mus musculus with 2 samples.

Results

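The cytosolic ribosomal protein genes of the mouse were followed across the cell classes of the adult striatum. They were taken as every gene row whose symbol starts with Rpl or Rps and a digit, with Rplp0, Rplp1, Rplp2 and Rpsa, and without pseudogene rows marked -ps and the Rps6k kinases. This gave 86 of the 32285 genes in the count matrices. Of these, 77 encode the standard proteins of the ribosome, 46 of the large subunit and 31 of the small subunit, and the other 9 are paralogs or partners: Rpl22l1, Rps27l, Rpl36al, Rpl7l1, Rps27rt, Rpl3l, Rpl10l, Rpl39l and Rps19bp1. All 86 had at least 1 UMI (unique molecular identifier, 1 captured RNA molecule).

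Cells were dissociated from the striatum of untreated mice aged 8 to 10 weeks by the labels, and a fine filter enriched glia. By the study's methods, actinomycin D was in the recovery, digestion and trituration solutions, against changes of transcription from stress. Its part in the results was not tested. Droplet libraries of RNA 3′ ends were made as replicates 1 and 2 of a single condition. The strain label reads C57/Bl6J, whereas the protocol label names C57BL/6NTac, and the labels give neither the number of mice in each library nor which of the kit versions named there (v2 and v3) made which library. Library 1 held 6978 barcodes and 44597660 UMIs and library 2 held 5437 barcodes and 37982720 UMIs, with medians of 3852 and 5375 UMIs a barcode. The libraries shared 9 barcodes, and ribosomal protein genes took 7.18% of the UMIs of library 1 and 5.73% of those of library 2.

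A eukaryotic ribosome joins a small subunit, which reads the mRNA, to a large subunit, which forms the peptide bond, and each subunit needs its proteins in about equal numbers. The mRNAs of these proteins are among the most abundant of a cell. Many begin with a C followed by a run of pyrimidines, the 5′ terminal oligopyrimidine (TOP) motif, through which mTOR and Larp1 hold or release their translation together. In the adult brain, new neurons are still made in the subventricular zone beside the striatum, and their precursors divide, unlike the neurons they may become.

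The sequence around the annotated transcript start shows the TOP motif in some of these genes. For 66 of the 86 genes a promoter was matched by symbol in RefSeq (GRCm38.p6), and 12 are shown because results below turn on them or because they carry a long run. Each sequence holds 30 bases on the strand of the transcript, the last 15 starting at the annotated start, and capitals mark the unbroken run of C and T from that start. Where RefSeq lists several starts for a gene, the first in the table is shown.
Rps6, chr4:86857353-86857382, minus strand: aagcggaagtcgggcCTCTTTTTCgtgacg
Rpl15, chr14:18270972-18271001, minus strand: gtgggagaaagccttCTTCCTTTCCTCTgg
Rps10, chr17:27635230-27635259, minus strand: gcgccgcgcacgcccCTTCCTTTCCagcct
Rps18, chr17:33955651-33955680, minus strand: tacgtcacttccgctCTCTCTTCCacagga
Rpl38, chr11:114668565-114668594, plus strand: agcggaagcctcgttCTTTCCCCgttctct
Rps27, chr3:90213634-90213663, minus strand: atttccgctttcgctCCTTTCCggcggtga
Rps27rt, chr9:114982725-114982754, minus strand: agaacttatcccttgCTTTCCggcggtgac
Rps27l, chr9:66946071-66946100, plus strand: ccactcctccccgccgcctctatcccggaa
Rpl13, chr8:123102335-123102364, plus strand: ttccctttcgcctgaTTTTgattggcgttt
Rpl22, chr4:152325711-152325740, plus strand: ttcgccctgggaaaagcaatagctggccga
Rpl22l1, chr3:28805493-28805522, plus strand: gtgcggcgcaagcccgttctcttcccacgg
Rplp0, chr5:115559452-115559481, plus strand: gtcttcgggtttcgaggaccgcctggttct

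A C at the annotated start followed by 4 bases that are all C or T stood in 13 of the 57 standard genes with a promoter (22.8%), against 3.01% of 27025 genes, counting a gene where any of its listed starts had it. The letters CTTTC, which such a run often contains, lay within 15 bases of the start on the transcript strand in 28.1% of the standard genes and 4.76% of all genes, and on the opposite strand in 5.26% and 4.21%. The letters CCGGAAG lay in the 300 bases around the start, on either strand, in 42.1% of the standard genes and 9.93% of all genes. Among the 9 paralogs and partners these features were found in 1, 2 and 2 genes. The annotated start may lie some bases from the start that a cell uses, as in Rpl13, where CTTTC stands before it, so a run that is not seen here says nothing about the transcript. The genes are scattered: by GENCODE M21 on GRCm38, 14 of the 86 lie on chromosome 7, 8 each on chromosomes 9 and 17, 7 on chromosome 11 and 4 on the X chromosome.

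Cell classes were rebuilt by clustering on other genes than these, and named by markers. The levels given next are those of the same markers, so they describe the classes and are no separate check of the names. Of the 9 classes compared, each had all of its 7 or 8 markers detected, and their summed level in the named class was above that in every other class in both libraries. The margin was smallest for the microglia-like class, with 33564 and 35393 CPM (UMIs of a gene per 1e+06 UMIs of the class) against 11274 CPM of the same markers in macrophage-like cells. Endothelial markers reached 6120 CPM in mural-like cells, against 25757 and 28456 CPM in endothelial-like cells. Macrophage-like cells held microglia markers at 11274 and 8951 CPM, above their own markers at 10782 and 7589 CPM, and microglia-like cells held macrophage markers at 25.2 and 13.5 CPM. Erythroid markers, which are hemoglobin genes and Alas2, reached 10765 CPM in neuron-like cells of library 1, above the neuron markers there (3038 CPM), and 22.3 CPM in library 2. They stood at 8230 and 168 CPM in endothelial-like and at 3441 and 13.5 CPM in mural-like cells. The part of these UMIs in the results was not tested, and values are given for each library.

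The share of UMIs on ribosomal protein genes differed several-fold between the classes. Macrophage-like cells, which sit along vessels and in the meninges, stood highest at 16.5% ± 2.19 (SD, n = 2 libraries), with 14.9% in library 1 and 18.0% (exact binomial 95% interval 17.9–18.1%) in library 2. Neuroblast-like cells, the young neurons and dividing precursors, followed at 12.2% and 11.0%, and microglia-like cells at 10.9% and 9.37%. By the median over cells these classes changed places, with 10.1% and 7.64% in neuroblast-like and 10.6% and 9.14% in microglia-like cells. Vascular cells were intermediate, with 8.10% and 7.48% in endothelial-like and 7.43% and 6.51% in mural-like cells. In oligodendrocyte precursor (OPC)-like cells the share was 5.27% and 4.92%, and in oligodendrocyte-like cells 4.43% and 3.97%. Neuron-like cells had 3.50% and 3.59% and astrocyte-like cells 3.85% and 2.64%. From macrophage-like down to oligodendrocyte-like cells the ranges of neighbouring classes did not overlap, whereas those of neuron-like and astrocyte-like cells did. In the finer division of the cells described below, 384 cells of the astrocyte-like class fell in a cluster named neuron-like and led by Sst and Slc17a7. Astrocyte-like cells then had 3.39% and 2.59% and neuron-like cells 4.73% and 3.66%, which did not overlap. With 2 libraries no exact test of these shares can reach a p of 0.05, and the intervals cover counting error only. Erythroid-like cells, of which library 2 held 11, had 0.782% and 0.745% and entered no test.

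**Figure D1:**
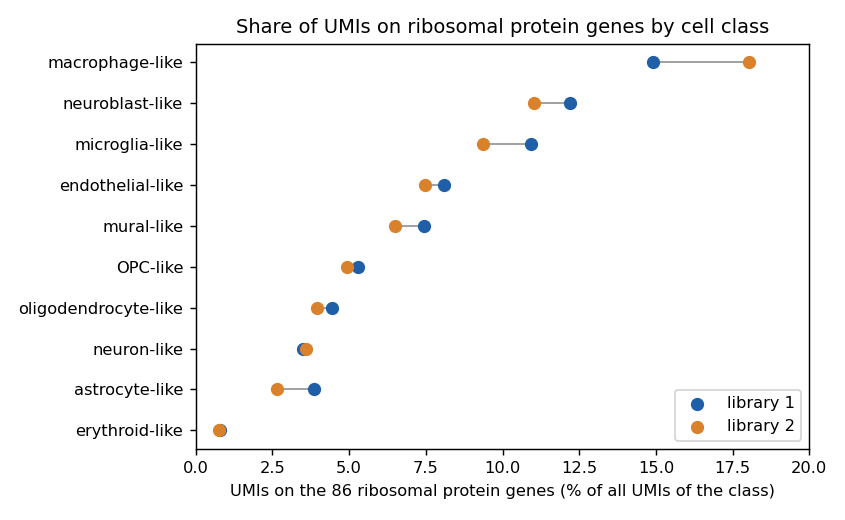
Share of all UMIs of a class that fell on the 86 ribosomal protein genes (x axis, percent), by class (y axis), with a point for each library and a line joining them. Macrophage-like cells lie at 14.9 and 18.0%, neuroblast-like cells at 12.2 and 11.0%, and neuron-like and astrocyte-like cells between 2.64 and 3.85%.

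Other shares also differed between the classes, not always in the same order. In library 1 mitochondrial transcripts took 3.85% of the UMIs of macrophage-like cells and 8.07% of those of neuron-like cells, and the nuclear RNA Malat1 took 1.61% and 10.8%. OPC-like cells, with a lower ribosomal protein share than neuroblast-like cells, had 4.18% mitochondrial UMIs in library 1, against 4.59%. Astrocyte-like cells had 8.50% and 9.72% mitochondrial UMIs in the libraries, and the median cell of that class held 1623 and 2370 UMIs, fewer than in any other class. The part of RNA quality and depth in the ribosomal protein share was not tested. Genes of the mitochondrial ribosome, a separate machine, took between 0.348% and 0.709% of UMIs in the 9 classes.

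Within classes the share varied between clusters, and shallow clusters were not always the lower ones. When the cells were divided more finely, Dcx- and Stmn2-led neuroblast-like cells had 13.4% and 12.5%, and the Top2a-led progenitor-like cells had 12.3% and 11.1%. A shallow neuroblast-like cluster, with medians of 1226 and 979 UMIs and 11.9% and 16.2% mitochondrial UMIs, had 6.30% and 3.86%. Mural-like cells led by Acta2 and Tagln, genes of contractile smooth muscle, had 8.54% and 7.20%, whereas those led by Vtn and Kcnj8, pericyte genes, had 4.87% and 4.27%. Oligodendrocyte-like cells of the deep cluster had 4.63% and 4.08%, and those of a shallow cluster with 19.1% and 27.3% mitochondrial UMIs had 2.44% and 1.57%. In contrast, a shallow microglia-like cluster, with medians of 1182 and 1321 UMIs, had 11.0% and 11.6%, against 10.9% and 9.24% in the deep one. The shallow and deep astrocyte-like clusters had 4.67% and 2.71%, and 3.20% and 2.61%. Without the cells that the finer division named neuron-like, which had 7.60% over both libraries, the shallow astrocyte-like cells had 3.70% and 2.51%.

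Neuroblast-like cells were split by genes of dividing cells, and both groups stood high. Cells with a UMI of Mki67, Top2a, Cenpf, Ube2c or Birc5 had 12.8% in library 1 and 11.7% in library 2, and the remaining neuroblast-like cells had 11.3% and 9.97%. The cycling cells were deeper, with medians of 8361.5 and 8497 UMIs against 1931.5 and 2394. With each cell thinned to 1000 UMIs and sorted again by the UMIs left, which kept 236 and 125 cells with such a UMI and 784 and 284 without, the shares were 11.5% and 9.64% against 9.81% and 9.11%. These are not the same groups of cells, since shallow cells drop out and some cells lose their UMI. Each of these values lay above the shares of OPC-like, oligodendrocyte-like, astrocyte-like and neuron-like cells given above, which were not thinned.

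Neuroblast-like cells, which hold young neurons and dividing precursors, were set against the neuron-like class of mature neurons. Of the 83 ribosomal protein genes with enough UMIs to be tested, 82 were higher in neuroblast-like than in neuron-like cells and 0 were lower, where 28.8% of the 15283 genes tested were higher and 25% lower (adjusted p under 0.05). Their median log2 fold change was 1.87, with 1.99 in library 1 and 1.77 in library 2, and the median over all genes was 0.07. Fold changes in this and the next comparisons come from edgeR with trimmed-mean (TMM) scaling of UMIs summed per library and class, so they can differ from the ratio of the CPM printed beside them. The p-values weigh a difference between classes against how unevenly class differences repeat in the 2 libraries. That spread is estimated over all 9 classes together, except in the Crym comparison, which was fitted by itself, and it may be technical. The 3 genes too low to test were Rpl3l, Rpl10l and Rpl39l, with at most 33 UMIs in a library.

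The genes for the proteins of the stalk, where elongation factors dock on the large subunit, all had higher mRNA levels. Rplp0, its base, had 2253 and 2070 CPM in neuroblast-like and 262 and 244 CPM in neuron-like cells, a log2 fold change of 3.28 ± 0.19 (SE; edgeR quasi-likelihood fit, Benjamini-Hochberg adjusted p = 9.5e-10) and the largest of the 83. Rplp1, on that base, had 1748 and 1747 CPM against 713 and 791 CPM, a rise of 1.40 on the log2 scale, and Rplp2 rose by 1.58. The libraries of the classes did not overlap for these genes. Of the small subunit, Rps9 stood at 1910 and 1781 CPM against 332 and 304 CPM, and rose by 2.72 ± 0.15. Rpsa, which also has a membrane form that binds laminin, rose by 2.23. Rps6, the protein that S6 kinases phosphorylate downstream of mTOR, had 725 and 715 CPM against 209 and 259 CPM and rose by 1.81. Rpl5 and Rpl11, which hold the 5S RNA and can bind Mdm2 in the p53 pathway, rose by 1.82 and 1.79, and Rps27a, made as a fusion with ubiquitin, rose by 1.90. The median over small subunit genes was 2.03 and over large subunit genes 1.81, with 31 of 31 and 46 of 46 higher.

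The exception was Rpl22l1, the paralog of Rpl22. It had 405 and 492 CPM in neuroblast-like and 348 and 565 CPM in neuron-like cells, so the classes overlapped, and its log2 fold change was 0.18 ± 0.21 (edgeR, Benjamini-Hochberg adjusted p = 0.48). In the finer division, where progenitor-like cells and a shallow cluster led by Sst and Slc17a7 change the classes, it was -0.89 and lower in neuroblast-like cells. Rpl22 itself had 944 and 892 CPM against 205 and 180 CPM, a rise of 2.44 ± 0.15. The smallest rises among the others were those of Rpl36al, 0.84, and of Rpl31, a protein at the exit of the peptide tunnel, 0.91. Rps27l, a paralog of Rps27 that p53 induces, stood at the high end, with 335 and 363 CPM against 55.0 and 60.8 CPM and a rise of 2.78 ± 0.16. Rps27 rose by 1.58, Rpl7 by 2.28 and its distant relative Rpl7l1 by 1.43, Rps4x by 2.47, Rpl39 by 2.00, Rpl36a by 1.80 and Rpl3 by 1.23.

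**Figure D2:**
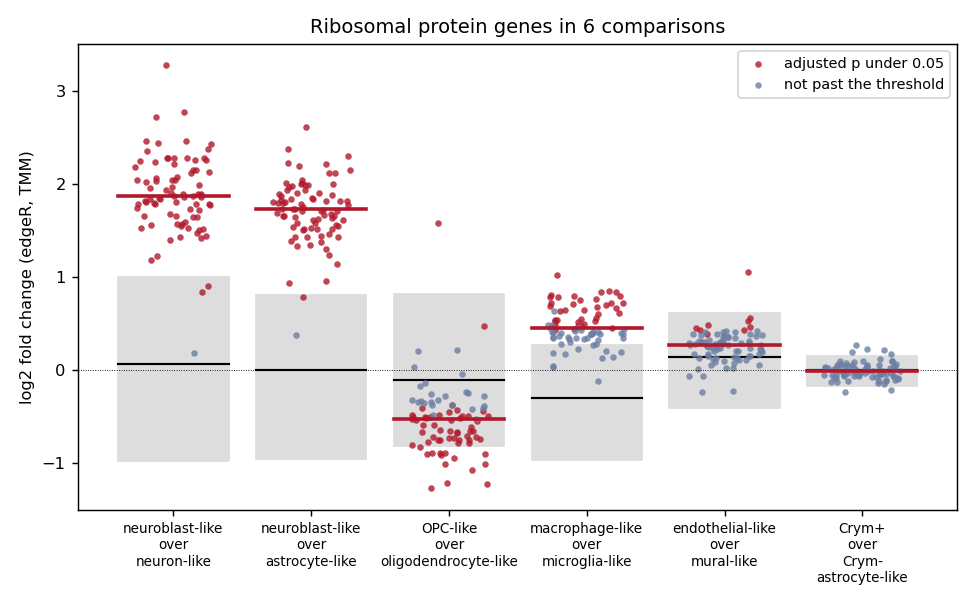
log2 fold change (y axis) of each ribosomal protein gene tested in 6 comparisons (x axis), a point for each gene, red where the adjusted p was under 0.05. Red bars mark the median of these genes, black bars and grey boxes the median and the interquartile range of all genes tested. The median stands at 1.87 and 1.73 in the comparisons of neuroblast-like cells, at -0.52 in OPC-like over oligodendrocyte-like cells (0.26 with library sizes alone), and at -0.0086 in the Crym comparison.

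Genes that work with ribosomes were read from lists. Of 20 genes listed as translation factors and other TOP mRNAs, 18 were higher in neuroblast-like than in neuron-like cells. Among them were Eef1a1 (2.09 on the log2 scale), which carries aminoacyl-tRNA to the ribosome, Tpt1 (2.32) and Hnrnpa1 (3.14), which encodes a splicing and RNA-binding protein and no translation factor. The others were lower: Eef1a2, the form of Eef1a1 that mature neurons use, by 3.85, and Eif4a2 by 0.69. Of 30 ribosome biogenesis genes, 21 were higher, Nop58 by 2.04 and Fbl by 1.97 on the log2 scale, and 1, Taf1d, was lower. Of the 78 mitochondrial ribosomal protein genes, 54 were higher and 1 lower, with a median of 0.70. The 13 genes that control ribosomal protein mRNAs were near the background, with 23.1% higher and 30.8% lower against 28.8% and 25% of all genes. Of these 3 were higher, Mycn (4.35), Eif4ebp1 (3.43) and Eif4ebp2, and 4 were lower, Mtor, Rptor, Tsc1 and Rps6kb2, whereas Larp1 had a log2 fold change of 0.08 and did not pass. Rack1 and Fau, ribosomal proteins whose symbols the rule does not cover, were both higher, by 2.73 and 1.40.

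Neuroblast-like cells also stood above astrocyte-like cells. Again 82 of 83 ribosomal protein genes were higher and 0 lower, where 28.2% of all genes tested were higher and 27.7% lower, and their median was 1.73 (1.59 in library 1 and 1.90 in library 2) against -0.0005 over all genes. This comparison shares its neuroblast-like cells with the one above. In the finer division, without the cells named neuron-like there, 80 were higher and 0 lower, with a median of 1.68. Both classes were drawn again for that fit. Its share of all genes called and its median over all genes are not given, so this count has no background beside it. Rplp0 again led, with 392 and 270 CPM in astrocyte-like cells and a log2 fold change of 2.62 ± 0.18 (edgeR, Benjamini-Hochberg adjusted p = 5.6e-09). Rps26, at the exit of the mRNA channel, had 1850 and 1767 CPM against 403 and 287 CPM and rose by 2.30. Rpl22l1 rose by 0.95 ± 0.20 here, and Rpl22 by 2.04. In the finer division Rpl22l1 was at -0.0868 in this comparison. The gene that did not pass was Rps19bp1, whose product binds Rps19 and the deacetylase Sirt1, with 75.2 and 60.8 CPM against 49.5 and 48.8 CPM (0.38, edgeR, Benjamini-Hochberg adjusted p = 0.09). Of the lists, 18 translation factors were higher and 1 lower, 27 biogenesis genes were higher and 0 lower, and 27 mitochondrial ribosomal protein genes were higher and 5 lower, while 3 of the control genes were higher and 2 lower.

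In the oligodendrocyte lineage the direction rested on the scaling. As a share of UMIs, ribosomal protein genes took slightly more in OPC-like than in oligodendrocyte-like cells, but so did many other genes. Rpl13 alone made up part of this difference. It took 8.98% and 9.85% of ribosomal protein UMIs in OPC-like cells, and between 2.03% and 3.10% in the other clusters of the finer division. The oligodendrocyte-like class also includes 274 cells that the finer division named OPC-like. The 7 oligodendrocyte markers, mostly myelin genes, alone took 69751 and 65052 CPM of oligodendrocyte-like cells. With TMM scaling, whose factors were 1.30 and 1.33 in OPC-like and 0.771 and 0.753 in oligodendrocyte-like cells, 2 of 83 ribosomal protein genes were higher and 57 lower in OPC-like cells, where 23.4% of all genes were higher and 27.8% lower. With library sizes alone, where the median of all genes rose to 0.65, 22 were higher and 2 lower. With scaling to all other genes that are not mitochondrial 15 were higher and 2 lower. The shares of all genes called that are given here are those with TMM. The counts with the other scalings thus have no background beside them and cannot be read as a turn of these genes alone. The median was -0.52 with TMM, 0.26 with library sizes alone, 0.25 with scaling to the other genes and -0.31 with DESeq2. The median of all genes moved with it, from -0.10 with TMM to 0.65 with library sizes alone. Relative to that median the ribosomal protein genes stood at -0.42, -0.39, -0.39 and -0.42 in these 4 scalings.

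Rpl13, a protein of the large subunit, went against the rest. It had 4739 and 4842 CPM in OPC-like cells, more than any other class, and 995 and 869 CPM in oligodendrocyte-like cells, a log2 fold change of 1.58 ± 0.17 (edgeR, Benjamini-Hochberg adjusted p = 6.8e-07). It passed in the same direction in every alternative with a test, with 0.93 in the finer division, which adds a further OPC-like cluster, and 2.37 with library sizes alone. Rpl7l1 was the other gene called higher, with 89.3 and 99.6 CPM against 42.3 and 36.6 CPM (0.47, edgeR, Benjamini-Hochberg adjusted p = 0.014). But this call was lost without the filter on low counts and in the finer division. It was also lost without cells of high mitochondrial share, where the classes were drawn again. At the low end stood Rps3, at the entry of the mRNA channel, with 494 and 425 CPM against 665 and 619 CPM (-1.27), and Rps21 with 674 and 542 CPM against 892 and 751 CPM (-1.22), both called lower in every scaling (-0.48 and -0.44 with library sizes alone). Rpsa (-1.21) and Rplp0 (-1.01) were called lower with TMM and not with library sizes alone. Of the small subunit 25 of 31 genes were lower with TMM and of the large subunit 31 of 46. With TMM 13 translation factors were lower and 1, Eef1a2, was higher. With library sizes alone, where the median of all genes also rose, 8 were higher and 2 lower.

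The OPC-like class is the cluster led by Pdgfra, the receptor that marks precursors. There Rpl13 took 8.98% and 9.85% of all ribosomal protein UMIs. The finer division took 274 cells out of the oligodendrocyte-like class as a further OPC-like cluster, led by Bmp4 and Gpr17, genes of precursors that have begun to differentiate, and there it took 2.03% and 2.06%, at 1104 and 926 CPM. Over the 19 clusters other than the Pdgfra-led one the share lay between 2.03% and 3.10%. A Rpl13 UMI was held by 96.7% and 94.2% of OPC-like cells, but also by 89.6% and 90.9% of oligodendrocyte-like cells. The median cell held 29 and 32 Rpl13 UMIs in the OPC-like class and 11 and 11 in the oligodendrocyte-like class. The median depth of oligodendrocyte-like cells was greater (11261.5 and 12140 against 6976 and 7211 UMIs). The gene (ENSMUSG00000000740) lies at chr8:123102350-123105244 on the plus strand of GRCm38.

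The 2 kinds of brain phagocyte differed in the same direction over many genes. In macrophage-like over microglia-like cells 39 of 83 ribosomal protein genes were higher and 0 lower, where 6.58% of all genes were higher and 13.1% lower. Their median was 0.45, with 0.24 in library 1 and 0.67 in library 2, and the median of all genes was -0.30. Relative to all genes they stood at 0.76 with TMM, 0.76 with library sizes alone, 0.80 with scaling to the other genes and 0.69 with DESeq2. Rpl38, which some Hox mRNAs need for their translation, had 1982 and 1825 CPM against 996 and 649 CPM, a log2 fold change of 1.02 ± 0.17 (edgeR, Benjamini-Hochberg adjusted p = 0.00031). Rpl36 had 1722 and 2168 CPM against 942 and 905 CPM (0.85). Rpl22l1 had 260 and 574 CPM against 192 and 190 CPM (0.84), a difference of 0.24 in library 1 and 1.35 in library 2. Rps29, the most abundant of these genes in macrophage-like cells in library 1, had 7424 and 5399 CPM against 4333 and 2760 CPM and rose by 0.65. Of the small subunit 21 of 31 genes were higher and of the large subunit 15 of 46.

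The number called in this pair depended on the fit: 20 genes without the library as a block, 10 with cells thinned to 1000 UMIs and 76 with DESeq2. The shares of all genes called in these fits are not given, so these counts have no background beside them. Macrophage-like cells numbered 93 and 77, were led by Cd74, Pf4 and H2-Aa, and held microglia markers above their own, as given above. Few genes of the related lists were called, where 6.58% of all genes were higher and 13.1% lower. These were 1 translation factor higher (Tpt1, 0.81) and 1 lower (Pabpc1, -0.55), 1 biogenesis gene higher and 3 lower, 7 mitochondrial ribosomal protein genes higher and 1 lower, and 1 control gene in each direction. The medians were 0.13 for translation factors, -0.098 for mitochondrial ribosomal protein genes, -0.33 for biogenesis and -0.38 for control genes, against -0.30 over all genes.

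Between endothelial-like and mural-like cells few ribosomal protein genes passed the test. The mural-like class mixed the Acta2-led cells, at 8.54% and 7.20%, with the Vtn-led cells, at 4.87% and 4.27%. It also held 55 cells that the finer division left unnamed, led by Dcn and Igfbp2. The part of this mix in the comparison was not tested. Of 83 ribosomal protein genes 9 were higher in endothelial-like cells and 0 lower, where 14.6% of all genes were higher and 12.1% lower, so the share called higher lay below the background, and the median was 0.27 (0.24 and 0.29 in the libraries) against 0.14 over all genes. The count ran from 1 gene with scaling to the other genes to 23 with cells thinned to 1000 UMIs. For these fits the shares of all genes called are not given. Rpl38 stood apart, with 1858 and 1630 CPM against 1051 and 796 CPM and a log2 fold change of 1.06 ± 0.17 (edgeR, Benjamini-Hochberg adjusted p = 0.00012). It was called higher under every alternative with a test. Rps29 (2246 and 1493 CPM against 1712 and 1074 CPM) rose by 0.56 and Rpl11 (1042 and 1031 CPM against 820 and 751 CPM) by 0.53. Translation factors called higher were Eif3f and Eif3e, with 0 lower. Of the other lists, 4 biogenesis genes were higher and 0 lower, 3 control genes were higher and 1 lower, and 2 mitochondrial ribosomal protein genes were higher and 3 lower.

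The division that the study draws, of astrocytes with and without Crym, gave no ribosomal protein gene that passed the test. Crym+ astrocyte-like cells (543 and 444) had shares of 3.78% and 2.74% and Crym- cells (962 and 620) of 3.93% and 2.52%. The groups differed in depth, with medians of 2404 and 4980.5 UMIs in Crym+ and 1350.5 and 1779.5 UMIs in Crym- cells, and in mitochondrial share, with 7.51% and 8.25% against 9.53% and 11.5%. Crym was among the leading genes of the deep astrocyte-like cluster. The comparison was also fitted with thinned cells and in each of the deep and shallow clusters alone. In the deep cluster alone the median log2 fold change was 0.11. The part of depth and cluster in the result was not tested further. Of 82 ribosomal protein genes tested, 0 were higher and 0 lower at an adjusted p under 0.05 (edgeR), where 3.54% of the 5959 genes tested were higher and 5.1% lower, and DESeq2 also called 0. At an unadjusted p under 0.05 there were 4, 2 in each direction. The median was -0.0086, with -0.080 in library 1 and 0.056 in library 2. Among the genes named, Rpl22 had 209 and 180 CPM in Crym+ and 252 and 197 CPM in Crym- cells (-0.24 ± 0.10, edgeR, adjusted p = 0.14), and Rps27l had 129 and 133 CPM against 116 and 102 CPM (0.23 ± 0.11, edgeR, adjusted p = 0.19). Other choices called at most 2 genes, Rpl4 and Rps10, named here after their values were seen. No translation, biogenesis or control gene passed in the Crym comparison by edgeR, and of 73 mitochondrial ribosomal protein genes 3 were higher and 1 lower.

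Over the 9 classes most standard genes shared the highest class, and many the lowest. Macrophage-like cells had the highest mean CPM of 67 of the 77 standard genes, neuroblast-like cells that of 9, and OPC-like cells that of Rpl13. In 50, 3 and 1 of these the libraries of the highest class did not overlap those of any other class. The same counts were not made over all genes, so these have no background to be set against. Astrocyte-like cells had the lowest mean for 52 and neuron-like cells for 19. To compare the genes apart from the total, each gene was taken as a share of all ribosomal protein UMIs of its class. The SD of the log2 share over classes had a median of 0.22 for the standard genes.

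By this share the genes that varied most were mostly paralogs and partners: Rps19bp1 (SD 0.89), Rpl22l1 (0.83), Rps27l (0.71), Rpl13 (0.66) and Rpl7l1 (0.56). Among the standard genes Rpl31 (0.53), Rps29 (0.46), Rpl10 (0.43), Rpl38 (0.41) and Rplp1 (0.41) came next. The SD of Rpl10 was 0.30 in library 1 and 0.57 in library 2, where it had at most 70.9 CPM in a class, so counting error may add to it. A gene whose own level is steady also varies in this share as the total changes. Over the classes the mean CPM ran from 31.8 to 72.0 for Rps19bp1 and from 36.2 to 94.5 for Rpl7l1. It ran from 168 to 456 for Rpl22l1, from 57.9 to 349 for Rps27l and from 821 to 4791 for Rpl13. Rps28, a standard gene lower in this order, ran from 340 to 2571 CPM. Rpl31 took 0.959% and 0.948% of ribosomal protein UMIs in neuron-like and 0.264% and 0.330% in microglia-like cells. Rps29 took 4.98% and 2.996% in macrophage-like cells and 3.96% and 2.95% in microglia-like cells, against 1.88% and 1.26% in OPC-like cells. Rplp1 was also high in the phagocytes, at 3.54% and 3.87% in microglia-like and 3.02% and 2.85% in macrophage-like cells, against 1.43% and 1.58% in neuroblast-like cells. High shares of these genes were not found in phagocytes alone. In the Sst- and Slc17a7-led cluster that the finer division named neuron-like, Rps29 took 3.23% and 2.53% and Rplp1 3.21% and 2.63%. Rplp0, the partner of Rplp1 in the stalk, had its highest share in neuroblast-like cells, 1.85% and 1.88%, and its lowest in neuron-like cells, 0.750% and 0.680%. Rpl38 took 2.29% and 2.18% in endothelial-like cells, above its share in every other class in both libraries, and 0.911% and 0.693% in microglia-like cells. Rpsa was highest in oligodendrocyte-like cells, with 2.13% and 2.22%.

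**Figure D3:**
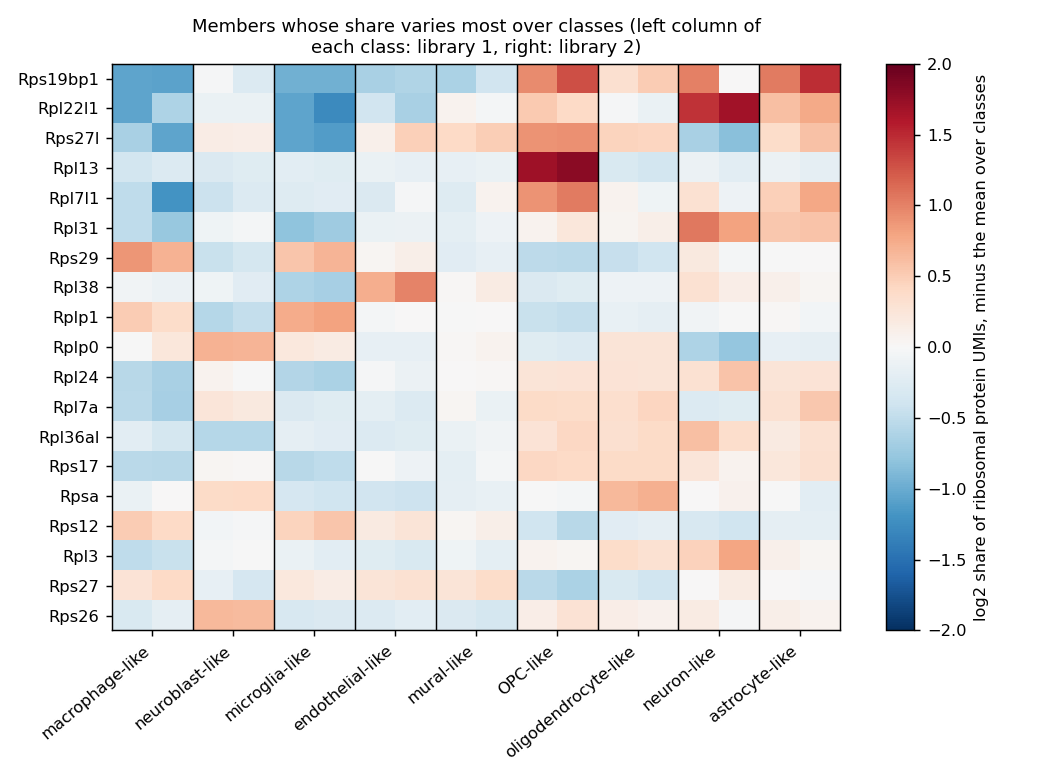
Each gene's log2 share of ribosomal protein UMIs (colour, minus its mean over classes in the same library) for 19 genes with the most variable share (y axis), by class (x axis; left column library 1, right column library 2). The darkest red cells are Rpl13 in OPC-like cells, at 8.98 and 9.85% of ribosomal protein UMIs, and Rpl22l1 in neuron-like cells, and Rpl10 is left out for its difference between the libraries.

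The balance within paralog pairs varied over the classes. Of the UMIs of Rpl22 and Rpl22l1, the paralog took 62.9% (exact binomial 95% interval 59.2–66.5%) and 75.8% (72.7–78.7%) in neuron-like cells, the largest share of any class. It took 48.1% and 53.6% in astrocyte-like, 45.2% and 48.8% in OPC-like, 37.0% and 39.5% in oligodendrocyte-like and 30.0% and 35.6% in neuroblast-like cells. It took 32.7% and 36.3% in mural-like and 25.3% in both libraries of endothelial-like cells. Microglia-like cells had 20.0% in both libraries, and macrophage-like cells 17.3% and 27.0%, a range that holds the microglia-like and endothelial-like values. In the finer division Rpl22l1 was at 561 and 606 CPM in the Top2a-led progenitor-like cells and at 218 and 263 CPM in the Dcx-led neuroblast-like cells. The Sst- and Slc17a7-led cluster that this division named neuron-like had Rpl22l1 at 376 and 366 CPM and Rpl22 at 473 and 227 CPM. The paralog was thus below Rpl22 there in library 1, unlike in the neuron-like class above. Rpl36al took from 34.4% and 40.4% of its pair with Rpl36a in neuroblast-like cells to 54.9% and 62.9% in oligodendrocyte-like cells, and its share was higher in library 2 in every class. Rpl7l1 took 16.1% and 19.2% of its pair with Rpl7 in OPC-like cells and 11.9% and 14.4% in astrocyte-like cells, but 6.49% and 4.38% in macrophage-like cells. Paralogs share sequence, so reads may have been divided between them by the counting.

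**Figure D4:**
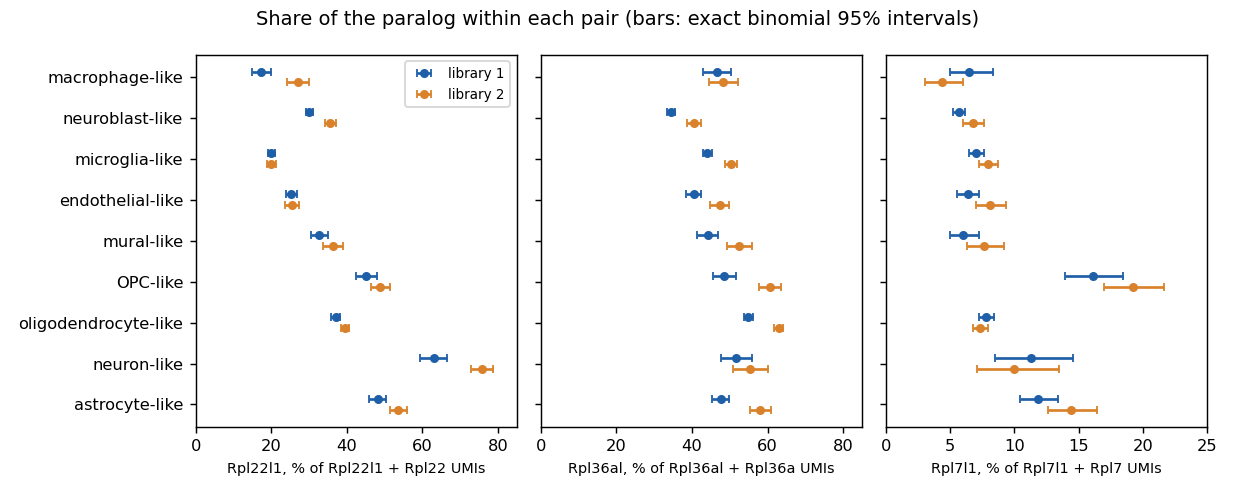
Share of the paralog in the UMIs of its pair (x axes, percent) for Rpl22l1, Rpl36al and Rpl7l1, by class (y axis), with a point for each library and exact binomial 95% intervals, which cover counting error only. Rpl22l1 reaches 62.9 and 75.8% in neuron-like cells and 20.0% in microglia-like cells.

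A few genes were measured differently in the libraries, in every class. Rpl10, which joins the large subunit last, had 1271 CPM in neuroblast-like cells of library 1 and 18.2 CPM in those of library 2, and its log2 share differed (library 2 minus library 1) by -4.10 to -5.98 over the classes. Its call as higher in neuroblast-like than in neuron-like cells (1.52 ± 0.35) came from library 1, with 2.08 there and 0.00089 in library 2, and was lost with DESeq2 and without the library as a block. Rpl9 and Rps27 were lower in library 2 by means of 1.93 and 1.78 on the log2 scale, and Rps2, Rps29 and Rpl21 by 0.56, 0.55 and 0.49. Rps27rt, whose start above resembles that of Rps27, was higher in library 2 by 1.33. The median of the standard genes was 0.08.

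**Figure D5:**
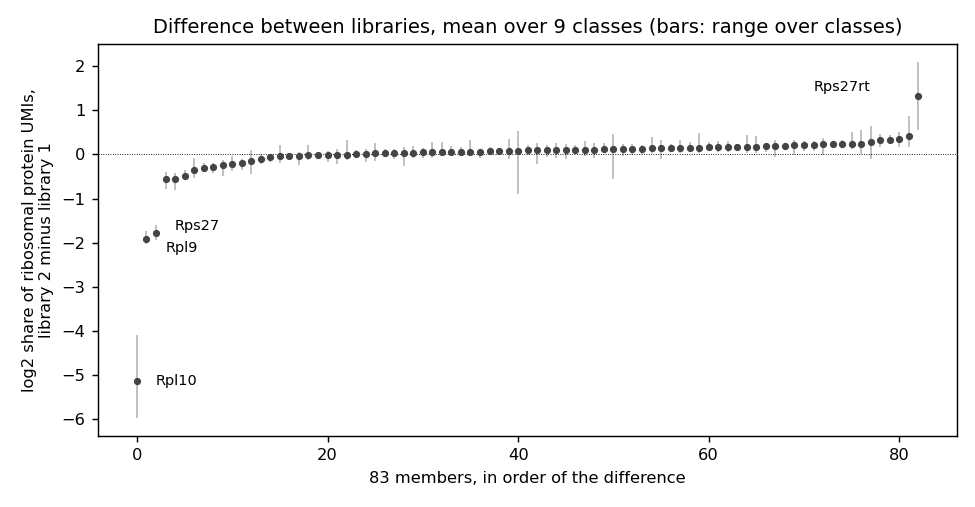
Difference of each gene's log2 share of ribosomal protein UMIs, library 2 minus library 1 (y axis), as the mean over 9 classes with bars for the range, for 83 genes in order (x axis). Rpl10 (-5.15), Rpl9 (-1.93) and Rps27 (-1.78) lie far below the rest and Rps27rt (1.33) above, while the median standard gene lies at 0.08.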

How the data were processed

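The authors made the deposited counts with Cell Ranger 4.0 by the labels (4.0.0 in the file headers) on mm10. They are UMI counts per gene and barcode and are not normalized. The study's methods name another version. Cells with at least 300 detected genes were kept, and doublets called by Scrublet (scanpy 1.11.5) were removed (96 and 159 cells, 1.39% and 2.96%), leaving 6802 and 5205 cells. As in the study's methods, libraries were joined by canonical correlation analysis with 30 components (Seurat 5.3.0, R 4.3.3) and clustered at a resolution of 0.08 (0.32 for the finer division). The clustering left out 354 genes. These were the ribosomal protein genes with the -ps and Rps6k rows, the gene lists, 97 cell-cycle genes, mitochondrial transcripts, Malat1, Crym and Gja1. Classes were rebuilt, so they can differ from those of the study. A cluster was named where at least 3 of its fixed markers stood out. Crym+ means over 0.25 on the natural log scale of UMIs per 10000.

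UMIs were summed per library and class and tested with edgeR 4.0.16 (quasi-likelihood test, TMM, library as a block, Benjamini-Hochberg adjustment over all genes tested, threshold 0.05). Filters were filterByExpr for classes and detection in 10% of the cells of either group for Crym. The script recovered large changes placed in simulated data. Those data held no other differences between classes or libraries, so the fits were not tried against such differences. The block follows from the design: all classes of a library come from 1 suspension. Alternatives were DESeq2 1.42.0, other scalings, no filter, no block, the finer division, cells thinned to 1000 UMIs, the standard genes only and each library alone. In others doublets were kept, or only cells under 20% mitochondrial UMIs, and for both the cells were clustered and named again. Further fits took the deeper cluster of a class alone or, for Crym, the shallow astrocyte-like cluster alone. Other steps used pandas 2.3.3, scipy 1.17.1, numpy 2.4.6 and matplotlib 3.10.9 in Python 3.11.15. The 2 libraries total 44597660 and 37982720 UMIs.

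The genes and lists were chosen with earlier results of these data known. Named genes were a fixed list (stalk proteins, Rpsa, Rps6, Rpl5, Rpl11, Rps27a and paralog pairs), the 3 largest rises and 3 largest falls called in each comparison with the same sign in both libraries, and the 10 genes of at least 50 CPM in some class in both libraries whose share varied most over classes. Rps4l was not analysed here, and a gene that the rule names is not reported here. Genes of the lists for translation, biogenesis, control and the mitochondrial ribosome, and other standard genes, are named as examples chosen after their values were seen.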

Additional observations from a re-analysis of the deposited data

Results flagged for a closer look

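Rows of ribosomal protein pseudogenes, which the rule leaves out, also held UMIs. Together the 5 rows marked -ps held 736 UMIs in library 1 and 4348 in library 2, which is 0.0230% and 0.1997% of the UMIs of the ribosomal protein genes. Rpl9-ps6 had 348 and 2925 UMIs, Rpl10-ps3 298 and 1182, Rpl36a-ps1 90 and 228 and Rpl9-ps1 0 and 13, and Rpl36-ps4 had 0 in both. Rpl9 and Rpl10, whose names the first pair carries, were lower in library 2. Whether the counting divided reads between the genes and these rows was not tested. These were singled out because they hold signal outside the comparisons, and there are no control samples to set them against.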

How the results depend on the processing

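With 2 libraries the depth of rare classes and the lack of further replicates limit every call, and a call that is lost may be a matter of precision. Shares of UMIs on the ribosomal protein genes, as means over the libraries, moved most when the median over cells replaced the pooled UMIs: 8.87% in neuroblast-like, 2.40% in neuron-like, 14.3% in macrophage-like, 7.18% in endothelial-like and 5.54% in mural-like cells. The neuron-like share was 3.46% over the standard genes only, 3.91% of UMIs that are not mitochondrial, 4.20% in the finer division and 4.24% under 20% mitochondrial UMIs, where the OPC-like share was 5.56%. Under that limit the cells were clustered and named again, so the classes changed as well. The neuron-like class then held 1529 cells against 368, and the OPC-like class 855 against 643.

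The counts of genes called in other fits stand here without the shares of all genes called in the same fits. In neuroblast-like over neuron-like cells 1 gene, Rpl22l1, was lower in the finer division. In OPC-like over oligodendrocyte-like cells 22 were higher and 2 lower with library sizes alone, 15 and 2 with scaling to the other genes, and the medians turned to 0.26 and 0.25. Relative to the median of all genes, the ribosomal protein genes stayed lower in both of these scalings. In this pair 1 was higher without the filter on low counts, in the finer division and among the standard genes alone, and 37 were lower with thinned cells. In macrophage-like over microglia-like cells 76 were higher with DESeq2, 69 with library sizes alone, 75 with scaling to the other genes and 10 with thinned cells. In endothelial-like over mural-like cells 3 were higher with DESeq2, 2 with library sizes alone, 1 with scaling to the other genes, 4 without the filter, 4 in the finer division, 14 under 20% mitochondrial UMIs and 23 with thinned cells. In the Crym comparison 1 was higher without the filter, 1 in the finer division, 2 under 20% mitochondrial UMIs and 1 in the deeper astrocyte-like cluster alone, a setting chosen after seeing the data in which the median moved to 0.11. Rpl22l1 in neuroblast-like over neuron-like cells was -0.089 with DESeq2, -0.0048 with library sizes alone, -0.89 in the finer division and -0.0205 with thinned cells, and -0.0205 or 0.42 with either library left out. Over astrocyte-like cells it was -0.0868 in the finer division. The cause of these changes was not tested.

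Without the replicate block, which the pairing of classes within a library calls for, 20 genes were higher in macrophage-like over microglia-like cells and 2 in endothelial-like over mural-like cells. Rpl38 in macrophage-like over microglia-like cells was then 0.99, and it, Rps29 in both pairs, Rps27 and Rpl10 lost their calls. Each library alone gave a value with no test, and among the named genes and medians of the class comparisons only Rpl22l1 turned (the Crym median, near 0, did too). Of the shares and counts recomputed, 173 stayed within the spread between libraries or within 1.5 times the count, and 36 did not. Of the median fold changes, 21 values moved by more than that spread, and the OPC-like medians above turned.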
